A study of Gossypium hirsutum with 24 samples.

Results

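Cotton leaves fed upon by larvae of the cotton bollworm (CBW, Helicoverpa armigera) for 12 h were compared with leaves of undamaged plants harvested at the same time. The comparison was chosen from the sample titles and comprised 6 of the 24 arrays of the series, 3 labelled CBW, 12h and 3 labelled control, 12h. All plants were upland cotton, Gossypium hirsutum cv. CCRI12, an allotetraploid, grown in a growth chamber to the stage of 6-7 expanded true leaves, 5-6 weeks after sowing. Each array held RNA of whole leaves harvested from a group of 3 bagged plants, so that 1 array stands for a pool of plants. Third-instar larvae reared on artificial diet stayed on the plants until harvest, and undamaged control plants were kept in the same way. The labels and the methods of the study differ in the number of larvae and in the kind of bag. The other arrays of the series were taken at 6, 24 and 48 h and served here to estimate the spread and to set the 12 h response against the response at those times. Expression was measured on the Affymetrix Cotton GeneChip, on which a probe set is a group of short oligonucleotides read out as 1 signal intensity. Values at 12 h were present for 14403 of the 23972 probe sets in the table, and all 14403 were analysed.

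Leaf-chewing insects induce in plants a response that is carried in large part by jasmonates. Jasmonic acid is made from linolenic acid by lipoxygenase, allene oxide synthase and allene oxide cyclase in the plastid, and by 12-oxophytodienoate reductase and β-oxidation enzymes in the peroxisome. Its isoleucine conjugate leads to the breakdown of JAZ repressors, which releases bHLH factors of the MYC type, and JAZ genes are themselves among the genes that these factors switch on. In cotton the products of the defence response include terpenoid aldehydes such as gossypol, protease inhibitors, peroxidases and leaf volatiles.

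The 6 arrays at 12 h had similar median intensities, between 372 and 399. Correlations of log2 intensities over the 14403 probe sets were between 0.977 and 0.988 among the 3 CBW arrays. Control replicate 1 stood apart from the other control arrays, with correlations of 0.935 and 0.942 against 0.975 between control replicates 2 and 3. It also lay nearer to the CBW arrays: across probe sets, its deviation from the mean of the other controls correlated at 0.40, 0.57 and 0.45 with the CBW response at 6, 24 and 48 h, times that share no array with it, over 13729 to 13837 probe sets. Of the 3558 probe sets called lower in CBW leaves, control replicate 1 was the control array nearest to the CBW mean in 60.7%, and of the 2872 called higher in 49.2%. Other arrays also departed along that response: CBW replicate 2 deviated from the other CBW arrays with correlations of −0.45, −0.47 and −0.50, and CBW replicate 1 with 0.19, 0.37 and 0.35. The root mean square deviation was 0.63 on the log2 scale for control replicate 1 and 0.29 to 0.47 for the other arrays. Results are therefore given with all 6 arrays and, for the genes named whose size moved by over 1.5 times, without control replicate 1. Among the names available, 1 probe set belonged to the leaf markers (a chlorophyll a-b binding protein, with summed intensity of 571 to 900 in control and 594 to 683 in CBW arrays), so the labelled tissue could not be checked further by name. Of the 7 probe sets matched by the words for fibre and dividing cells, all were called higher, with a summed intensity of 743 to 801 in control and 14925 to 18741 in CBW arrays, and most of that sum came from expansins and a fiber quinone-oxidoreductase. Of the 5 probe sets with late embryogenesis abundant names, 4 were called higher, with sums of 5437 to 11307 in control and 14829 to 20666 in CBW arrays, and the 1 with a pollen name was called lower. These names come from the study's own table, in which 612 of 796 measured probe sets were called higher and 3 lower. Over all probe sets 19.9% were called higher and 24.7% lower. The part of other tissues in the results was not tested.

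At 12 h, 2872 probe sets were higher in CBW than in control leaves (19.9% of those tested) and 3558 were lower (24.7%), at an adjusted p of 0.05 or less by limma. In whole leaves, a change in the number of cells of a type and a change of RNA per cell cannot be told apart. Most of the calls were small: 61.5% of the 6430 called probe sets (44.6% of those tested) differed by less than 2-fold, with a median size of 0.81 on the log2 scale. Large changes were more often rises. At 4-fold or more, 792 probe sets differed (5.50%), 541 higher (3.76%) and 251 lower (1.74%), and 27 rises but no fall reached a log2 difference of 5. The largest rises started from a low level, since the 541 probe sets had a median intensity of 108 in control leaves against 396 over all probe sets, and 913 in CBW leaves. The 251 that fell went from a median of 608 to 84.9. All CBW values exceeded all control values in 3389 probe sets (23.5%) and were below them in 4119 (28.6%), and 5976 of the 6430 called probe sets were separated in this way. Without control replicate 1, 2959 probe sets were higher and 3646 lower, with 584 and 335 of them at 4-fold or more, and 5769 calls were shared between both fits with the same direction. Raising all values to at least the 20th percentile of each array, which was 112 to 116, left 343 rises and 137 falls of 4-fold or more.

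**Figure D1:**
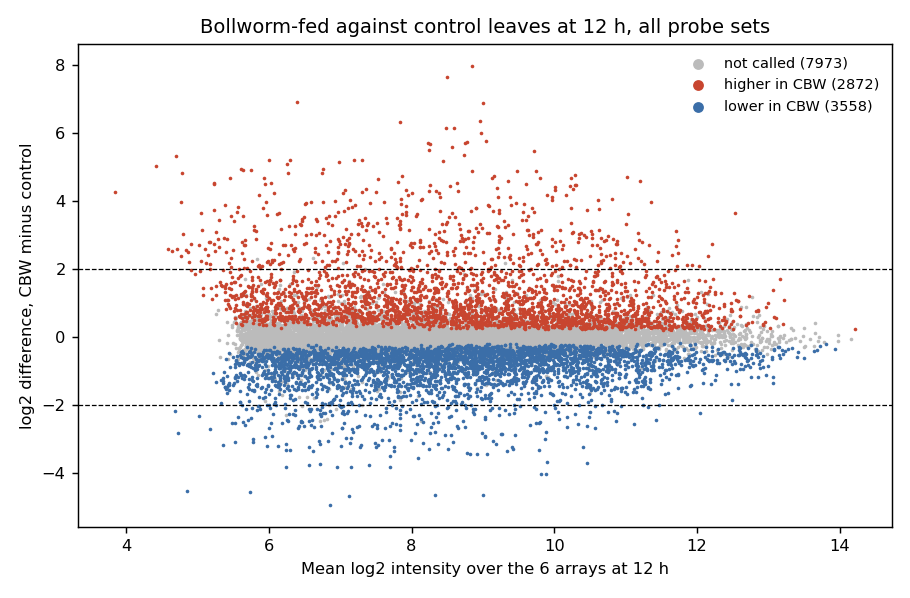
Each point is 1 probe set, with its mean log2 intensity over the 6 arrays at 12 h on the horizontal axis and the log2 difference between CBW and control leaves on the vertical axis. Dashed lines mark 4-fold changes. The 2872 probe sets called higher reach farther from 0 than the 3558 called lower.

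The genes described one by one were mainly those that met a naming rule: called, with all 3 CBW arrays on one side of all controls, and a mean of the brighter group at or above 382, the median intensity. Separation of the groups is thus part of how these genes were chosen. The largest rise was that of Expansin-like B1 (EXLB1, matched to Gorai.004G192500 of Gossypium raimondii), a member of the expansin superfamily of cell wall proteins. Its intensity was 80.8, 14.7 and 21.2 in the control arrays and 6787, 7011 and 8176 in the CBW arrays. The groups lay far apart, and the log2 difference was 7.96 (SE 0.50, adjusted p = 1.8e-09), or 5.98 when the control values, which lay in the dim range of each array, were raised to the 20th percentile. Without control replicate 1 it was 8.69. A second probe set of the gene read 39.8, 16.1 and 26.2 in the control arrays and 5130.1, 4346 and 5939 in the CBW arrays, with a log2 difference of 7.64 (SE 0.45, adjusted p = 1.2e-09), or 5.47 with the floor.

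Several enzymes of nitrogen and amino acid metabolism were among the 12 largest named rises. Glutamine-dependent asparagine synthase 1 makes asparagine, a nitrogen-rich transport amino acid. It read 13.0, 5.33 and 6.52 in the control arrays and 1098, 808 and 873 in the CBW arrays, with a log2 difference of 6.90 (SE 0.47, adjusted p = 4.1e-08). All its control values lay below the 20th percentile of their array, and with the floor the difference was 2.99, the smallest of the 12. Glutamate dehydrogenase, which links glutamate to the carbon skeletons of the citric acid cycle, read 137, 20.1 and 35.3 in the control arrays and 4412, 2256 and 3430.4 in the CBW arrays, a log2 difference of 6.14 (SE 0.58, adjusted p = 1.7e-07), and 6.93 without control replicate 1. Control replicate 1 was the highest of the controls for both, and all CBW arrays were far above it. Arginine decarboxylase opens the synthesis of polyamines. It read 49.6, 58.0 and 87.4 in the control arrays and 3436, 5467 and 3481 in the CBW arrays, with a log2 difference of 6.00 (SE 0.70, adjusted p = 1.8e-06). Tyrosine/DOPA decarboxylase, which forms tyramine or dopamine, read 22.1, 20.4 and 38.3 in the control arrays and 2048, 2391 and 1725 in the CBW arrays, a log2 difference of 6.30 (SE 0.58, adjusted p = 7.8e-07). In both of these decarboxylases the CBW arrays lay above every control array, a condition of the naming rule.

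The other large rises included defence proteins, enzymes of oxidation and regulators. A bifunctional inhibitor/lipid-transfer protein/seed storage 2S albumin family member read 187, 15.6 and 36.1 in the control arrays and 7009.6, 5178 and 4613 in the CBW arrays. Its log2 difference was 6.87 (SE 0.87, adjusted p = 4.8e-06), and 7.86 without control replicate 1, the brightest control array. POD9, a class III peroxidase of the cell wall, read 62.7, 14.6 and 85.8 in the control arrays and 3361, 2146 and 3798 in the CBW arrays, a log2 difference of 6.14 (SE 0.65, adjusted p = 6.1e-07). The pathogenesis-related thaumatin protein read 54.8, 68.9 and 44.8 in the control arrays and 3538, 1915 and 2663 in the CBW arrays, a log2 difference of 5.57 (SE 0.39, adjusted p = 4.6e-09). None of these 3 genes had overlapping groups, a condition of the naming rule. Log2 differences of 5.74 for progesterone 5-beta-reductase, 5.72 for cytochrome P450 94A1 (a fatty acid hydroxylase family), 5.70 for an AP2/ERF factor and 5.69 for an auxin-responsive GH3 protein (enzymes that join amino acids to auxin or jasmonate) completed the 12 largest named rises, with adjusted p-values from 3.6e-09 to 6.5e-05. With the floor at the 20th percentile all 12 stayed called, with log2 differences between 2.99 and 5.98.

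**Figure D2:**
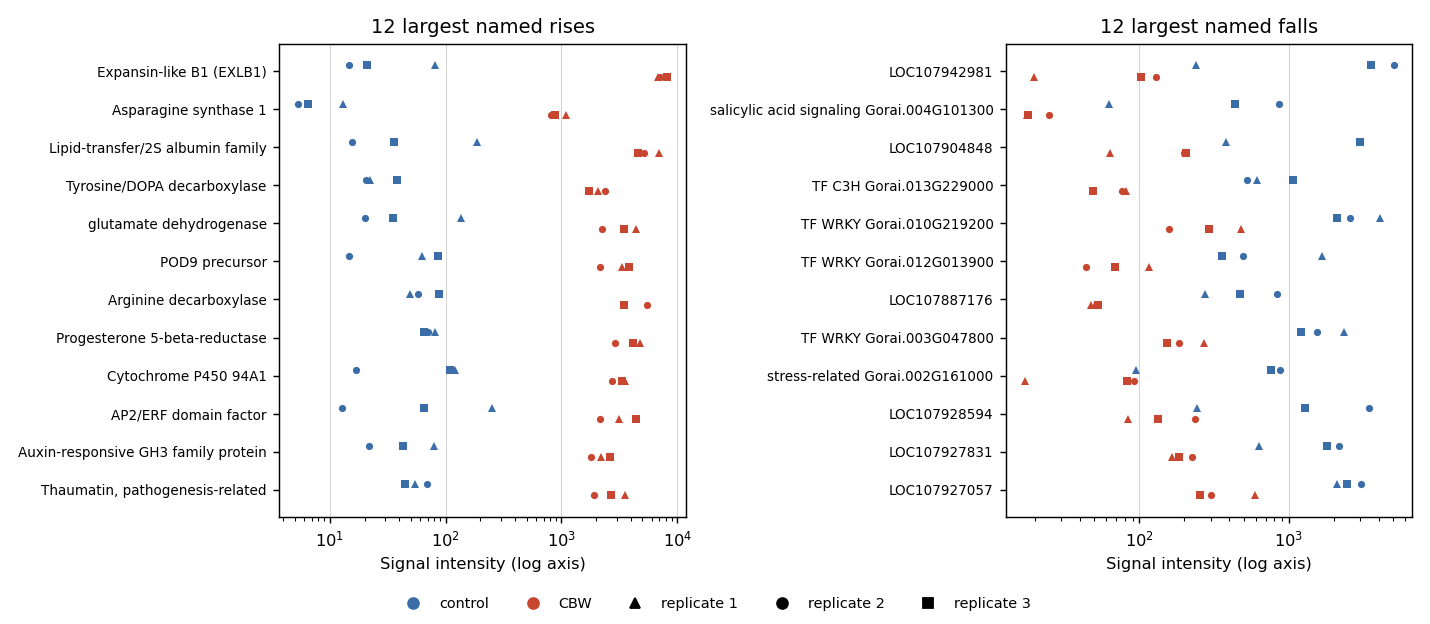
Signal intensity on a log axis for the 12 largest named rises (left) and the 12 largest named falls (right), with 1 point per array. Blue points are control and red points CBW arrays, and the marker gives the replicate. CBW and control arrays do not overlap in any row, which was a condition of the naming rule. Control replicate 1 (triangle) is the control nearest to the CBW arrays in the 6 falls known by a LOC symbol.

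Of the 541 probe sets that rose 4-fold or more, 374 had a name, a platform symbol or a place in a list of the study. The names come from a table of genes that the study chose on these arrays, and 612 of its 796 named probe sets measured at 12 h were called higher and 3 lower, so the direction of lists drawn from names is not independent evidence. Within these names, all 10 probe sets for protease inhibitors and pathogenesis-related proteins were called higher, 7 of them at 4-fold or more. Genes without a name were outside this count, so it does not speak for all pathogenesis-related genes. On the salicylic acid signalling list, 2 of 6 probe sets fell by 4-fold or more, among them Gorai.004G101300, given below. The study places the pathogenesis-related protein PR1 among the salicylic acid signalling genes that were lower after feeding. It gives the falls of this list at 24 and 48 h and none of them at 12 h. The Kunitz trypsin and protease inhibitor and a chitinase are given as examples chosen after their values were seen. The Kunitz inhibitor, of a family that blocks digestive proteases of insects, read 293, 63.9 and 124 in the control arrays and 3754, 3484 and 4405 in the CBW arrays, a log2 difference of 4.87 (SE 0.71, adjusted p = 2.3e-05). The chitinase, named carrot EP3-3, read 195, 103 and 107 in the control arrays and 2036, 1165 and 2383 in the CBW arrays, a log2 difference of 3.79 (SE 0.32, adjusted p = 4.1e-08). Both were separated from the controls. Of 19 probe sets for peroxidases and redox enzymes 16 were called higher, and of 22 for cytochrome P450 and glycosyltransferases 18 were higher and 1 lower. Of 16 for nitrogen and amino acid metabolism 13 were higher, 11 of them at 4-fold or more, with a median log2 difference of 3.04. All 10 for sugar and starch metabolism were higher, among them trehalose phosphatase/synthase 11 at 3.83 (SE 0.48, adjusted p = 4.2e-06) and a neutral invertase, which splits sucrose, at 3.43 (SE 0.26, adjusted p = 1.4e-08). Of 17 for the cell wall 13 were higher and 1 lower. These lists were drawn from named probe sets, of which 76.9% were called higher, against 19.9% over all probe sets. The counts are therefore not read as results about these functions.

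Further transcripts with large rises, chosen after their values were seen, were abundant in CBW leaves. Ribonuclease 2 read 3466, 238 and 5746 in the control arrays and 20475, 21152 and 20948 in the CBW arrays. In CBW replicates 2 and 3 these were the highest values on the array, and in replicate 1 the highest value was 20556, so that the size of the rise could not be measured and no log2 difference is given. Myo-inositol oxygenase 2, an enzyme of inositol breakdown, read 318, 169 and 264 in the control arrays and 4444, 6944 and 8785 in the CBW arrays, a log2 difference of 4.74 (SE 0.53, adjusted p = 1.2e-06). Non-symbiotic hemoglobin, a scavenger of nitric oxide, read 348, 293 and 154 in the control arrays and 3453, 3763 and 5085 in the CBW arrays, a log2 difference of 4.01 (SE 0.60, adjusted p = 2.6e-05). Non-yellowing 1, a gene of chlorophyll breakdown (known from Arabidopsis), read 111, 49.5 and 106 in the control arrays and 1400.3, 2221 and 2238 in the CBW arrays, a log2 difference of 4.51 (SE 0.38, adjusted p = 4.6e-08). In each of these genes the groups were separate.

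Genes of jasmonate biosynthesis rose from lipoxygenase to the β-oxidation steps. Of the 42 measured probe sets that the study listed for this pathway, 40 were called higher and none lower, against a background of 19.9% and 24.7%. At 4-fold or more, 24 were higher, where the share over all probe sets was 3.76%. The median log2 difference was 2.25 (−0.04 over all probe sets). This list, like the other hormone, transcription factor, stress and metabolite lists of the study used below, was chosen by the study on these arrays, so that its direction is not independent evidence. Its members matched 24 genes, of which 23 had a probe set called higher. CBW values exceeded every control value in all 42 probe sets, against 23.5% of all probe sets. Lipoxygenase 3, at the entry of the pathway, had 5 probe sets with log2 differences from 2.45 to 3.01. The probe set with the largest rise of these read 803, 349 and 342 in the control arrays and 3546, 3355 and 4215 in the CBW arrays, a log2 difference of 3.01 (SE 0.34, adjusted p = 1.2e-06). Allene oxide synthase, the first committed step, had 3 probe sets from 3.30 to 4.45. Its most raised probe set read 447, 152 and 281 in the control arrays and 5954, 5536 and 6042 in the CBW arrays, with a log2 difference of 4.45 (SE 0.41, adjusted p = 1.2e-07). Allene oxide cyclase, which fixes the stereochemistry of the product, read 1259, 316 and 730.3 in the control arrays and 11081, 9691 and 10386 in the CBW arrays, a log2 difference of 3.97 (SE 0.42, adjusted p = 6.0e-07), and allene oxide cyclase 4 rose by 3.32. In both enzymes the lowest CBW array was several times above the highest control array. In the peroxisome, 12-oxophytodienoate reductase 3 had 3 probe sets from 2.08 to 2.77, acyl-CoA oxidase 2 had 3 from 1.39 to 1.71 and 3-ketoacyl-CoA thiolase 3, the last step of β-oxidation, read 176, 68.0 and 86.4 in the control arrays and 1138, 837 and 770.2 in the CBW arrays, a log2 difference of 3.16 (SE 0.41, adjusted p = 5.9e-06). Rises were thus larger in the plastid steps from allene oxide synthase on than for acyl-CoA oxidase, a difference between probe sets that was not tested. The 2 members that were not called had log2 differences of 1.07 and 0.20.

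The largest rise on this list was that of a gene named salicylate O-methyltransferase (Gorai.008G065900), of the family whose members methylate salicylate or jasmonate. It read 191, 294 and 1188 in the control arrays and 9541, 10956 and 11216 in the CBW arrays, and its log2 difference was 4.70 (SE 0.54, adjusted p = 1.6e-06). A second probe set of the gene rose by 4.62 on the log2 scale. Control replicate 3 was the highest control, and every CBW array was above it. The response was 3.36 at 6 h, 2.34 at 24 h and 2.53 at 48 h, and the difference between 12 h and each of these times did not pass the threshold (adjusted p from 0.053 to 0.19).

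In jasmonate signalling, 14 of 24 measured probe sets were called higher (58.3%) and 7 lower (29.2%), against 19.9% and 24.7% over all probe sets. Rises of 4-fold or more numbered 12, where the share over all probe sets was 3.76%. All 7 probe sets of 5 genes with a JAZ name were higher, with log2 differences from 2.08 to 4.47. The JAZ1 probe set with the largest rise read 288, 79.6 and 197 in the control arrays and 3363, 3570.5 and 4127 in the CBW arrays, a log2 difference of 4.47 (SE 0.40, adjusted p = 9.7e-08). Of the 9 probe sets that were also listed as bHLH factors, 6 were higher and 1 lower. One bHLH gene (Gorai.007G229000) read 20.9, 8.19 and 13.1 in the control arrays and 589, 350.4 and 419 in the CBW arrays, a log2 difference of 5.08 (SE 0.36, adjusted p = 6.4e-09), or 1.94 with the floor, since the controls were dim. Another (Gorai.004G149500) read 160.1, 234 and 352 in the control arrays and 2476, 3627 and 3046 in the CBW arrays, a log2 difference of 3.67 (SE 0.44, adjusted p = 2.5e-06). Its response at 6, 24 and 48 h was 0.34, −0.53 and −0.20, and its 12 h response exceeded each of these. The bHLH gene that fell (Gorai.004G212200) read 1029.7, 1685 and 861 in the control arrays and 440.5, 524 and 366 in the CBW arrays, a log2 difference of −1.38 (SE 0.21, adjusted p = 4.2e-05). The other 6 falls on the list were between −0.45 and −0.75 on the log2 scale. With low intensities filtered out, 9 members were called higher, and with the floor at the 20th percentile 7 of the 24 rose 4-fold or more.

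Ethylene acts beside jasmonate in wounded leaves. Of 16 probe sets for its biosynthesis 6 were higher (37.5%) and 5 lower (31.25%). Of 16 for its signalling 12 were higher (75%) and 2 lower (12.5%). Over all probe sets 19.9% were higher and 24.7% lower. ACC synthase genes, which encode the step that limits ethylene formation, rose. The first read 67.0, 28.7 and 29.8 in the control arrays and 674, 447 and 605 in the CBW arrays, a log2 difference of 3.88 (SE 0.56, adjusted p = 1.9e-05) and 2.30 with the floor, and the other 366, 204 and 168 in the control arrays and 2257, 2649.7 and 3286 in the CBW arrays, a log2 difference of 3.54 (SE 0.48, adjusted p = 1.0e-05). ERF7 read 111, 87.2 and 103 in the control arrays and 619, 548 and 513 in the CBW arrays, a log2 difference of 2.48 (SE 0.36, adjusted p = 2.3e-05), and a gene of the ethylene insensitive 3 family, the central transcription factors of the pathway, rose by 1.28 (adjusted p = 2.1e-05). The largest falls that met the naming rule had log2 differences of −0.57 in biosynthesis (Gorai.005G211000) and −0.81 in signalling (Gorai.005G004900). Leaving out CBW replicate 1 reduced the biosynthesis falls from 5 to 3.

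In auxin signalling 21 of 51 probe sets were lower (41.2%) and 11 higher (21.6%), against 24.7% and 19.9% over all probe sets. Of these, 9 of the rises and 3 of the falls were at 4-fold or more, where the shares over all probe sets were 3.76% and 1.74%. The GH3 gene named above was the largest rise, and the largest fall that met the naming rule (Gorai.N011800) read 181, 1339 and 637 in the control arrays and 62.9, 99.6 and 115 in the CBW arrays, a log2 difference of −2.58 (SE 0.54, adjusted p = 0.00077), and −3.36 without control replicate 1. In cytokinin signalling 13 of 33 were lower (39.4%) and 10 higher (30.3%). The largest fall there that met the naming rule (Gorai.008G170200) read 918, 976 and 1007 in the control arrays and 207, 355 and 266 in the CBW arrays, a log2 difference of −1.84 (SE 0.37, adjusted p = 0.00046), and the largest rise (Gorai.013G263800) read 45.7, 90.2 and 84.8 in the control arrays and 669, 828 and 1053 in the CBW arrays, a log2 difference of 3.57 (SE 0.62, adjusted p = 0.00013), or 2.86 with the floor. The other probe set of Gorai.008G170200 fell by less, with a log2 difference of −0.91. Cytokinin biosynthesis had 7 of 11 probe sets higher (63.6%) and 1 lower (9.09%), and 4 higher in a fit of the 6 arrays at 12 h alone. In brassinosteroid signalling 12 of 32 were lower (37.5%) and 7 higher (21.9%), with 7 lower after leaving out control replicate 2 or control replicate 3. BR-signaling kinase 1 rose, from 465, 458 and 404 to 1505, 1599.8 and 1658, a log2 difference of 1.85 (SE 0.22, adjusted p = 1.9e-06).

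Gibberellin signalling was divided, with 12 of 27 probe sets higher (44.4%) and 10 lower (37.0%), against 19.9% and 24.7% over all probe sets. The gibberellic acid receptor-b read 268, 244 and 240.2 in the control arrays and 1293, 1139 and 1233 in the CBW arrays, a log2 difference of 2.29 (SE 0.36, adjusted p = 4.6e-05), and a GRAS factor (Gorai.009G427800) read 665, 256 and 440.4 in the control arrays and 3359, 3075 and 4195 in the CBW arrays, a log2 difference of 3.06 (SE 0.36, adjusted p = 2.1e-06). The falls on this list depended on single arrays. They numbered 5 without control replicate 2, 3 without control replicate 3, 4 without CBW replicate 1 and 6 without CBW replicate 3. In abscisic acid signalling, 7 of 16 probe sets were lower (43.75%) and 2 higher (12.5%). One of those that fell (Gorai.008G270200) had little spread within groups, 758, 782 and 764 in the control arrays and 271, 294 and 321 in the CBW arrays, a log2 difference of −1.38 (SE 0.10, adjusted p = 7.3e-09). Leaving out CBW replicate 1 or control replicate 1 left 1 rise. In abscisic acid biosynthesis 3 of 10 were lower (30%) and 1 higher (10%), the rises numbering 2 without CBW replicate 2 and 3 without control replicate 1. For salicylic acid, 3 of 6 signalling probe sets were lower (50%) and none higher. None of 3 biosynthesis probe sets was called, with 1 called higher without control replicate 1. The largest fall among them, and among the stress-related genes, was that of Gorai.004G101300, which read 62.1, 861 and 435 in the control arrays and 17.7, 24.7 and 18.1 in the CBW arrays. Its log2 difference was −3.84 (SE 0.75, adjusted p = 0.00071), and −4.94 without control replicate 1, the lowest control. With the floor it was −1.63 (adjusted p = 0.037).

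**Figure D3:**
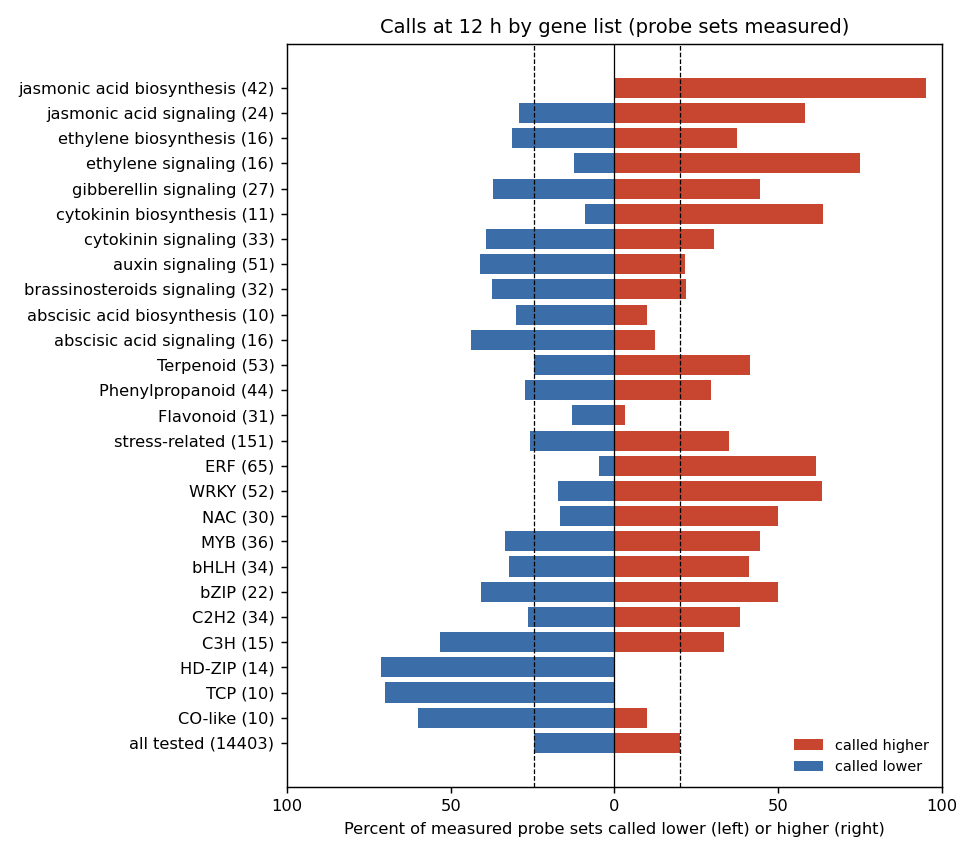
Percent of the measured probe sets of each list that were called higher (red, to the right) or lower (blue, to the left) at 12 h, with the number measured in brackets. Dashed lines mark the shares over all 14403 probe sets, 19.9% higher and 24.7% lower. Jasmonic acid biosynthesis has the highest share of rises shown, and the HD-ZIP, TCP and CO-like families have mostly falls.

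Transcription factors changed in proportions that varied by family. Of 496 listed probe sets, 186 were higher (37.5%) and 154 lower (31.0%), against 19.9% and 24.7% over all probe sets. At 4-fold or more, 62 were higher and 21 lower, where the shares over all probe sets were 3.76% and 1.74%. ERF factors, many of which act in ethylene and jasmonate responses, had 40 of 65 probe sets higher (61.5%) and 3 lower (4.62%). The AP2/ERF gene named above (Gorai.001G016800) read 253, 12.9 and 65.1 in the control arrays and 3121, 2145 and 4431 in the CBW arrays, where control replicate 1 was far above the other controls, and its log2 difference of 5.70 (SE 0.92, adjusted p = 6.5e-05) became 6.74 without that array. NAC factors had 15 of 30 higher (50%) and 5 lower (16.7%). NAC protein 13 read 295, 21.0 and 30.9 in the control arrays and 2713, 1244 and 2690.4 in the CBW arrays, a log2 difference of 5.18 (SE 0.79, adjusted p = 3.7e-05), 6.36 without control replicate 1 and 3.73 with the floor. MYB factors had 16 of 36 higher (44.4%) and 12 lower (33.3%). Myb domain protein 62 read 141, 27.4 and 79.0 in the control arrays and 2833, 2436 and 2870.2 in the CBW arrays, a log2 difference of 5.33 (SE 0.55, adjusted p = 4.4e-07) and 4.46 with the floor, and the MYB that fell most (Gorai.006G063000) read 379, 779 and 668 in the control arrays and 111, 142 and 97.9 in the CBW arrays, a log2 difference of −2.33 (SE 0.21, adjusted p = 8.0e-08). The 4 genes had no overlap between groups, a condition of the naming rule. The families bHLH (14 higher and 11 lower of 34), C2H2 (13 and 9 of 34) and bZIP (11 and 9 of 22) were mixed. The shares higher and lower were 41.2% and 32.4% for bHLH, 38.2% and 26.5% for C2H2, and 50% and 40.9% for bZIP.

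In some families falls were more frequent than rises. HD-ZIP factors had 10 of 14 probe sets lower (71.4%, against 24.7% over all probe sets) and none higher, with a median log2 difference of −1.21. The one that fell most (Gorai.005G189800) read 503, 661 and 706 in the control arrays and 201, 155 and 136 in the CBW arrays, a log2 difference of −1.93 (SE 0.15, adjusted p = 1.1e-08). TCP factors, which regulate cell proliferation in leaves, had 7 of 10 lower (70%) and none higher, with a median of −0.78. The example named by the rule (Gorai.002G064500) read 870.3, 1013 and 984 in the control arrays and 464, 598 and 429 in the CBW arrays. Its log2 difference was −0.95 (SE 0.24, adjusted p = 0.0035). MYB-related factors had 6 of 9 lower (66.7%) and none higher. CO-like factors had 6 of 10 lower (60%) and 1 higher (10%, against 19.9% over all probe sets). The CO-like gene that fell most (Gorai.006G061600) read 513, 694 and 649 in the control arrays and 112, 153 and 109 in the CBW arrays, a log2 difference of −2.31 (SE 0.19, adjusted p = 3.2e-08). C3H zinc finger factors had 8 of 15 lower (53.3%) and 5 higher (33.3%). The rises numbered 2 without control replicate 2 and 3 without control replicate 3 or CBW replicate 3.

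**Figure D4:**
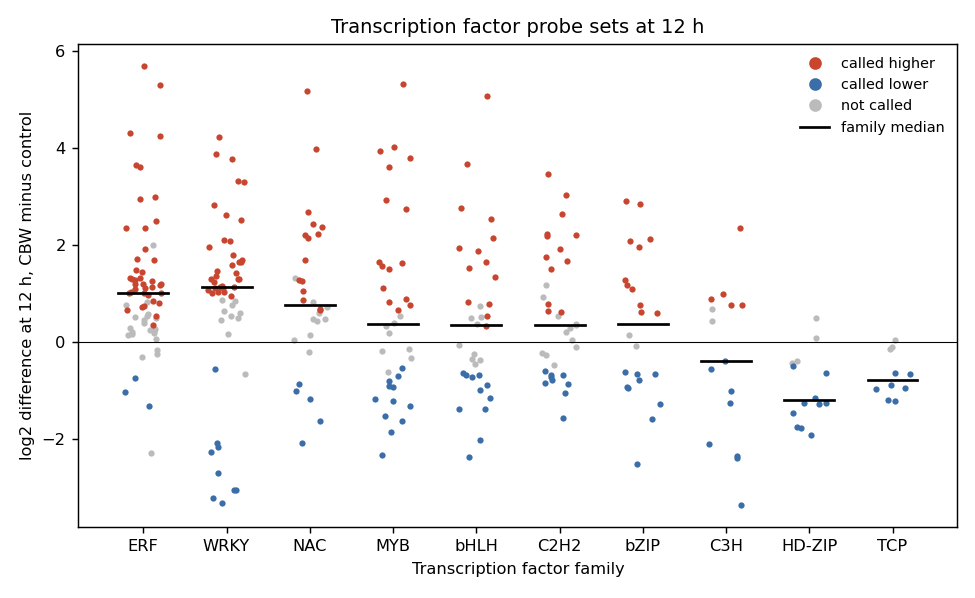
Log2 difference between CBW and control leaves at 12 h for each probe set (point) of 10 transcription factor families, with the family median as a bar. Red points were called higher, blue points lower and grey points were not called. WRKY factors show a group of 8 probe sets between −2.09 and −3.32.

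WRKY factors held both large rises and large falls. Of 52 probe sets of 30 genes, 33 were higher (63.5%) and 9 lower (17.3%), against 19.9% and 24.7% over all probe sets. At 4-fold or more there were 10 rises and 8 falls, where the shares over all probe sets were 3.76% and 1.74%. The rises were led by a WRKY gene (Gorai.010G182500), which read 40.2, 27.0 and 25.8 in the control arrays and 768, 473 and 506 in the CBW arrays, a log2 difference of 4.23 (SE 0.38, adjusted p = 8.0e-08) or 2.30 with the floor, and by WRKY40, which read 231, 80.6 and 147 in the control arrays and 2000.4, 1880.0 and 2336 in the CBW arrays, a log2 difference of 3.88 (SE 0.39, adjusted p = 3.3e-07). The 8 strong falls came from 5 other genes, none of which had a probe set called higher. Gorai.010G219200 read 4062, 2583 and 2100.2 in the control arrays and 481, 157 and 290.1 in the CBW arrays, a log2 difference of −3.32 (SE 0.62, adjusted p = 0.00026). Gorai.012G013900 read 1670.3, 492 and 359.8 in the control arrays and 117, 43.7 and 69.1 in the CBW arrays, a log2 difference of −3.24 (SE 0.59, adjusted p = 0.00022), −2.57 without control replicate 1 and −2.54 with the floor. Gorai.003G047800 read 2331, 1549 and 1213 in the control arrays and 269, 185 and 152 in the CBW arrays, a log2 difference of −3.06 (SE 0.58, adjusted p = 0.00033). In all 8 probe sets the CBW arrays lay below all controls. Control replicate 1 was the brightest control in 7 of the 8, that is, the farthest from the CBW arrays, and all 8 were called without it. With the floor at the 20th percentile, or after adding 16 to every intensity, the falls of 4-fold or more numbered 5. With the floor, the rises of that size numbered 6.

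These WRKY genes had other values at the other times. None of the 6 probe sets with values at 6 h and at 24 h was called lower at either time, and 2 of 6 were called lower at 48 h. The response at 12 h was below that at 6 h in 4 of 6 and below that at 24 h in all 6, and the difference from 48 h passed in none. Over all probe sets, 234 (1.73%) were called lower at 12 h with a response below that at 6 h and at 24 h. In control leaves the mean intensity of Gorai.010G219200 was 2915 at 12 h, against 1982 at 6 h, 404 at 24 h and 706 at 48 h. The mean of CBW leaves was 309, against 1102, 410.3 and 277 at these times. Gorai.003G047800 was at 1697 in control leaves at 12 h and at 461, 261 and 441 at 6, 24 and 48 h. Control leaves were higher at 12 h than at 6 h in 3 of the 6 probe sets, than at 24 h in 5 and than at 48 h in 5.

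Among terpenoid genes, enzymes at the entry of the mevalonate route rose. Of 53 probe sets on the terpenoid list, 22 were higher (41.5%, against 19.9% over all probe sets) and 13 lower (24.5%, against 24.7%). The median log2 difference was 0.39. A (+)-delta-cadinene synthase, the enzyme that opens the gossypol pathway, read 9.06, 18.0 and 10.9 in the control arrays and 692, 336 and 125 in the CBW arrays. The CBW arrays spread over a wide range but none overlapped the controls, and the log2 difference was 4.66 (SE 0.70, adjusted p = 3.0e-05). With the floor it was 1.41. Both other probe sets named delta-cadinene synthase were not called and had overlapping groups, with log2 differences of 1.297 (Gorai.009G428500, adjusted p = 0.097) and −0.32 (Gorai.013G164900, adjusted p = 0.61). HMG-CoA synthase, which supplies the mevalonate route, read 286, 100.2 and 161 in the control arrays and 1077, 503 and 378 in the CBW arrays, a log2 difference of 1.82 (SE 0.35, adjusted p = 0.00038), and 3-hydroxy-3-methylglutaryl-coenzyme A reductase 1, its rate-limiting enzyme, read 1162, 717 and 994 in the control arrays and 3538, 3639.8 and 4612 in the CBW arrays, a log2 difference of 2.06 (SE 0.30, adjusted p = 2.6e-05). A further member (Gorai.011G102700), without a name, read 525, 409.5 and 580.1 in the control arrays and 3938, 4508 and 4494 in the CBW arrays, a log2 difference of 3.11 (SE 0.35, adjusted p = 1.4e-06). Falls on the list were led by LOC107949818, which read 3285, 4776 and 3978 in the control arrays and 887, 1123 and 910.0 in the CBW arrays, a log2 difference of −2.03 (SE 0.18, adjusted p = 5.9e-08).

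Of 44 phenylpropanoid probe sets, 13 were higher (29.5%, against 19.9% over all probe sets) and 12 lower (27.3%, against 24.7%), with a median of 0.34. Without control replicate 2, 8 were higher. Caffeoyl-CoA 3-O-methyltransferase, an enzyme of lignin precursor synthesis, read 116, 89.3 and 126 in the control arrays and 1223, 909 and 1169.8 in the CBW arrays, a log2 difference of 3.32 (SE 0.30, adjusted p = 1.1e-07), and the largest fall (Gorai.009G005900) read 885, 1862 and 1460.3 in the control arrays and 331, 483 and 437 in the CBW arrays, a log2 difference of −1.70 (SE 0.34, adjusted p = 0.00046). Of 31 flavonoid probe sets, 26 were not called, 4 were lower and 1 higher, whereas 44.6% of all probe sets were called, and the rises numbered 2 with the replicate number as a block or without CBW replicate 1. CBW replicate 1 stood apart on this list. It was below all controls in 25 of the 31 probe sets, and CBW replicates 2 and 3 were above all controls in 16. How many of all probe sets show either pattern alone was not counted. Both held in 12, against 61 of all 14403 probe sets. The part of this array in the low count was not tested beyond leaving it out, which gave 2 rises and 3 falls. LOC107924088 of this list fell from 4479, 3605 and 2310.2 to 1189, 769 and 903, a log2 difference of −1.83 (SE 0.36, adjusted p = 0.00039). Its response was 1.34 at 6 h, 1.17 at 24 h and 1.00 at 48 h.

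Of 151 stress-related probe sets, 53 were higher (35.1%) and 39 lower (25.8%), against 19.9% and 24.7% over all probe sets. At 4-fold or more, 19 were higher and 8 lower, where the shares over all probe sets were 3.76% and 1.74%. The largest rise on this list that met the naming rule, a disease resistance-responsive family protein (Gorai.003G083500), read 16.6, 8.22 and 15.9 in the control arrays and 419, 418 and 625 in the CBW arrays, a log2 difference of 5.21 (SE 0.45, adjusted p = 5.9e-08), or 2.05 with the floor. Of the 15 probe sets that the study took for qPCR, all with values at 12 h, 9 were higher, 1 was lower and 5 were not called. The rises are among those given above except Gorai.009G071200 of jasmonate biosynthesis, which read 56.8, 46.9 and 78.5 in the control arrays and 314, 379.9 and 365 in the CBW arrays (2.57, SE 0.19, adjusted p = 1.1e-08), a lactate/malate dehydrogenase at 2.22, an unnamed probe set at 2.35, Gorai.006G009100 at 2.76 and Gorai.013G012400 at 0.55. The groups of Gorai.013G012400 overlapped, and it was not called without CBW replicate 1, without control replicate 3 or in the fit of the 12 h arrays alone. Gorai.006G009100 was not called with the floor at the 20th percentile (log2 difference 1.66, adjusted p = 0.074). With that floor Gorai.009G071200 stood at 1.61. Without it, all 4 probe sets of this gene were called higher, with log2 differences from 0.87 to 2.57. The probe set called lower (Gorai.011G184200, −0.62, SE 0.24, adjusted p = 0.043) had a control range of 810.1 to 2328 that overlapped the CBW range of 804 to 1044, and it was not called when CBW replicate 1, CBW replicate 3, control replicate 2 or control replicate 3 was left out, with the floor (adjusted p = 0.051) or in the fit of the 12 h arrays alone (adjusted p = 0.23). LOC107930062 of that set spread widely, 2391, 2479 and 3347 in the control arrays and 554, 5250.1 and 3475 in the CBW arrays, and was not called (log2 difference −0.32, SE 1.04, adjusted p = 0.83).

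Of the 251 probe sets that fell 4-fold or more, 47 had a name, a symbol or a place in a list, against 374 of the 541 that rose. Among all 14403 measured probe sets, 796 had a name in the study's table and 963 a place in its lists. A platform symbol was held by 742 of the 23972 probe sets of the array data. Among the 47 falls, LOC107942981 had the largest that met the naming rule. It read 238, 5062 and 3527 in the control arrays and 19.5, 129.6 and 103 in the CBW arrays. The CBW arrays lay below all controls, but control replicate 1 was far below the other controls, and the log2 difference of −4.67 (SE 1.03, adjusted p = 0.0012) became −6.05 without it and −3.78 with the floor. LOC107904848 read 382, 2952 and 3021 in the control arrays and 63.4, 198 and 203 in the CBW arrays, a log2 difference of −3.46 (SE 0.64, adjusted p = 0.00024), and −4.45 without control replicate 1. LOC107887176 read 276, 829 and 470.1 in the control arrays and 47.6, 51.4 and 52.6 in the CBW arrays, a log2 difference of −3.24 (SE 0.32, adjusted p = 1.4e-06), or −2.06 with the floor. Control replicate 1 was the lowest of the controls in these 3 and also in LOC107928594 (245, 3443 and 1279.6, against 84.0, 234 and 133 in CBW), LOC107927831 (631, 2162 and 1804, against 166, 226 and 185) and the stress-related Gorai.002G161000 (95.3, 868 and 762, against 17.04, 92.5 and 83.0). Log2 differences of these were −2.90, −2.82 and −2.97 with all arrays and −3.93, −3.37 and −4.00 without control replicate 1. LOC107927057 had closer controls and read 2097, 3022 and 2458 in the control arrays and 592, 303 and 256 in the CBW arrays, a log2 difference of −2.80 (SE 0.38, adjusted p = 9.5e-06). Across all 251 probe sets with falls of 4-fold or more, control replicate 1 was the nearest control to the CBW mean in 72.1%, against 36.7% of the probe sets that were not called.

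Calls for LOC107928594 and Gorai.002G161000 were lost under several alternatives. LOC107928594 was no longer called without CBW replicate 1 (log2 difference −2.54, adjusted p = 0.055) or control replicate 2 (−2.02, adjusted p = 0.091), and Gorai.002G161000 without CBW replicate 1 (−2.18, adjusted p = 0.17), control replicate 2 (−2.41, adjusted p = 0.14) or control replicate 3 (−2.50, adjusted p = 0.12). In the fit of the 12 h arrays alone neither was called (adjusted p = 0.054 and 0.065), and with the floor Gorai.002G161000 was not (−1.90, adjusted p = 0.13). A second probe set of Gorai.002G161000 was not called, with a log2 difference of −2.03. Unnamed probe sets fell further than any of these, and the 2 largest that met the rule had log2 differences of −4.95 (SE 0.77, adjusted p = 0.002) and −4.68 (SE 0.74, adjusted p = 5.3e-05). Without control replicate 1 these were −5.87 and −5.31. With the floor they were −2.50 and −2.63, and the first was no longer called (adjusted p = 0.052).

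Many probe sets with 4-fold changes at 12 h were called in the same direction at other times. Of the 541 rises, 396 of the 492 with values at 6 h were called higher there, 298 of them at 4-fold or more, against 26.3% called higher over all probe sets. At 24 h 420 of 487 were called higher, 311 at 4-fold or more (20.5% called over all), and at 48 h 440 of 498, 333 at 4-fold or more (22.6%). Of the 251 falls, 162 of 204 were called lower at 6 h, 100 of them at 4-fold or more (36.4% called lower over all). The numbers were 194 of 227 and 125 at 24 h (28.1%), and 194 of 224 and 102 at 48 h (21.8%). The shares in brackets are of calls of any size. How many of all probe sets changed 4-fold or more at 6, 24 and 48 h was not counted. Each time has its own CBW and control arrays. The spread of a probe set was estimated over all times together, so calls at different times are not independent of each other. Among the 13341 probe sets with values at all times, 665 were called at 12 h and at no other time. The size of the response was compared in the same model. The 12 h response differed from that at 6 h in 30.5% of the probe sets with values at both times, from that at 24 h in 11.5% and from that at 48 h in 9.69%.

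A response above those at 6, 24 and 48 h in all 3 tests was found in 158 probe sets called higher at 12 h (1.18% of 13341), and a response below all of them in 134 called lower (1.00%). EXLB1 (second probe set) stood out by its CBW level. Its mean intensity in CBW leaves was 5138 at 12 h, against 1017, 1491 and 602 at 6, 24 and 48 h, while control leaves stayed between 19.2 and 33.5. The 12 h response exceeded that at 6 h by 2.93 (SE 0.63, adjusted p = 0.0022), that at 24 h by 2.29 (SE 0.63, adjusted p = 0.025) and that at 48 h by 2.66 (SE 0.63, adjusted p = 0.015) on the log2 scale. In the first probe set of the gene only the difference from 6 h passed (1.97, SE 0.70, adjusted p = 0.04). Anthranilate synthase alpha subunit 1, the entry to tryptophan synthesis, had a like course. It read 215, 223 and 401 in the control arrays and 3906, 6982 and 7572 in the CBW arrays, a log2 difference of 4.46 (SE 0.46, adjusted p = 4.5e-07). CBW leaves had a mean of 6153 at 12 h and of 670.5, 675 and 732 at the other times, and its response exceeded theirs by 2.13 to 2.56.

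In most of the other rises the control level was lower at 12 h than at the other times. The aluminum induced protein with YGL and LRDR motifs read 817, 287 and 473 in the control arrays and 12329, 10124 and 12227 in the CBW arrays, a log2 difference of 4.58 (SE 0.39, adjusted p = 5.5e-08). Its mean in CBW leaves, 11559.8, was close to the 9642, 8655 and 10129 at 6, 24 and 48 h, but control leaves were at 526 against 2753, 3519 and 2534. A thioredoxin superfamily protein read 62.9, 26.2 and 56.1 in the control arrays and 1165, 1324 and 1135 in the CBW arrays, a log2 difference of 4.74 (SE 0.30, adjusted p = 1.9e-09) and 3.39 with the floor, with control means of 307, 272 and 189 at the other times. Of the 158 probe sets, 117 were lower in control leaves at 12 h than in control leaves at each other time by test, against 11.6% of all 13341. By mean log2 level, control leaves at 12 h were the lowest of the 4 times in 140 of the 158 and the highest in 5. CBW leaves at 12 h were the lowest in 54 and the highest in 62. The median log2 level at 12 h minus the mean over the other times was −1.14 in control and 0.04 in CBW leaves. The same control arrays at 12 h enter the response and this comparison, so these counts are not independent of each other. In the bZIP factor Gorai.007G277300, the log2 response of 2.91 at 12 h (125, 111 and 132 in the control arrays and 975, 836 and 953 in the CBW arrays) stood against −0.13 at 6 h, −0.08 at 24 h and 0.86 at 48 h.

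The falls below those of all other times had the opposite pattern in control leaves. The C3H factor Gorai.013G229000 read 608, 524 and 1060.5 in the control arrays and 81.0, 76.8 and 49.1 in the CBW arrays, a log2 difference of −3.37 (SE 0.27, adjusted p = 3.0e-08), or −2.61 with the floor. Its control mean was 731 at 12 h and 139, 144 and 115 at the other times, and its CBW mean stayed between 35.7 and 69.0. A second probe set of this C3H gene gave −2.41, and the study lists that probe set with falls at 6, 12, 24 and 48 h. The course given here is thus that of 1 probe set. The stress-related gene Gorai.008G274600 read 2280.1, 2583 and 1375 in the control arrays and 535, 327 and 202 in the CBW arrays, a log2 difference of −2.61 (SE 0.39, adjusted p = 3.0e-05), with control means of 191, 107 and 153 at 6, 24 and 48 h. At those times its response was 0.55 at 6 h, 0.85 at 24 h and 0.61 at 48 h. A second probe set of the gene gave −2.56. The GATA factor Gorai.013G127900 read 352, 441 and 472 in the control arrays and 80.2, 90.5 and 83.8 in the CBW arrays, a log2 difference of −2.31 (SE 0.12, adjusted p = 4.3e-10), and the NAC factor Gorai.007G114500 read 2755, 2175 and 1597 in the control arrays and 494, 420.0 and 593 in the CBW arrays, a log2 difference of −2.09 (SE 0.35, adjusted p = 8.2e-05). A second probe set of this NAC gene was not called, with a log2 difference of 0.13. Of the 134 probe sets, 87 were higher in control leaves at 12 h than at each other time, against 9.70% of all 13341, and the median level at 12 h minus the mean over the other times was 0.94 in control and −0.26 in CBW leaves on the log2 scale. With CBW replicate 3 left out, 77 probe sets in place of 134 had a response below all other times. The labels give the time since the start of feeding but not the hour of harvest, and the time of day was not tested.

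**Figure D5:**
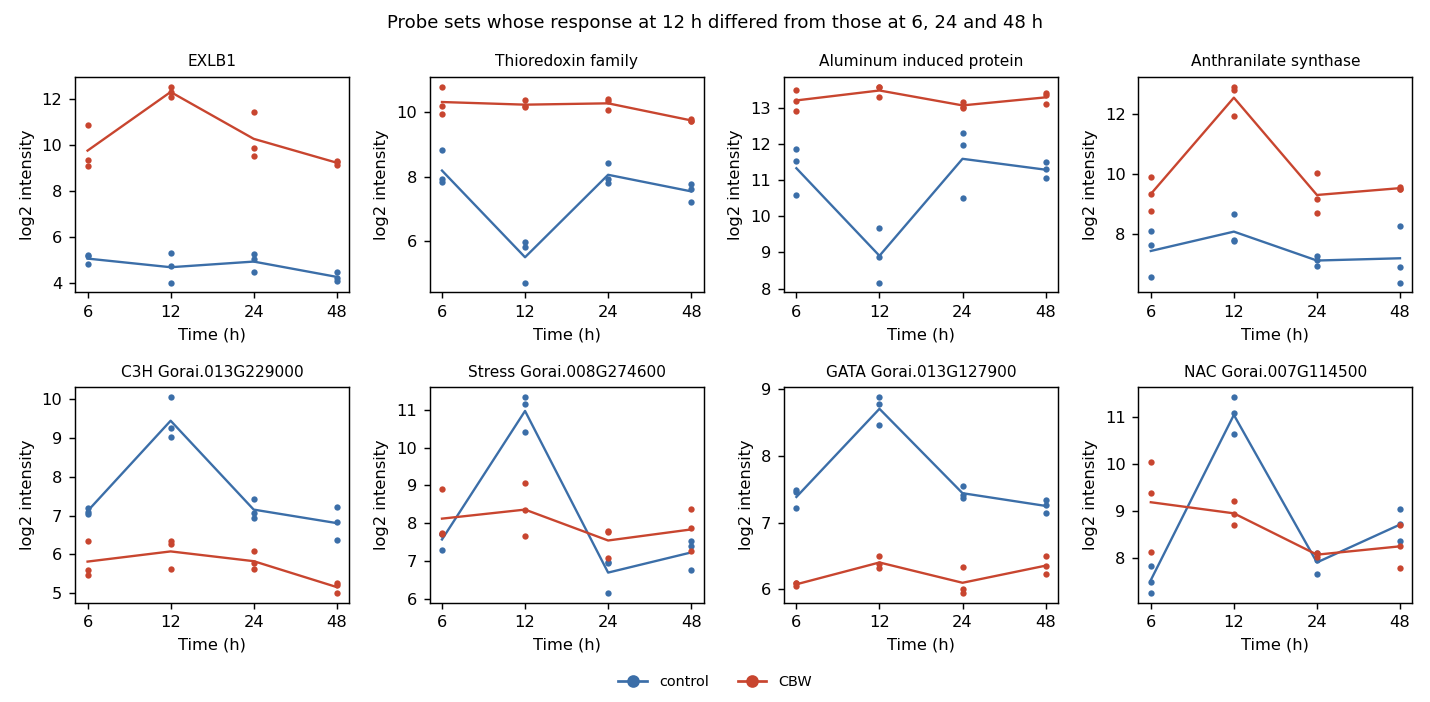
Log2 intensity by time after the start of feeding (equal spacing, 6 to 48 h) for 8 genes whose response at 12 h differed from that at each other time. Points are arrays and lines join the means of 3 arrays, control in blue and CBW in red. EXLB1 and anthranilate synthase peak at 12 h in CBW leaves, the thioredoxin and the aluminum induced protein are lowest at 12 h in control leaves, and the 4 genes of the lower row are highest at 12 h in control leaves.

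Probe sets of 1 gene mostly gave the same call. Of 303 G. raimondii genes matched by 2 or more measured probe sets (701 probe sets), all probe sets were called in one direction in 182, none was called in 70, some were called in one direction in 48, and probe sets were called in opposite directions in 3. Upland cotton carries a pair of subgenomes, and probe sets can bind transcripts of both copies and of related genes, so that values of probe sets whose identifiers end in _s_at, _x_at or _a_at may add several transcripts.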

How the data were processed

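Leaf RNA was hybridised to 1-channel Affymetrix Cotton GeneChip arrays. The authors deposited linear signal intensity values per probe set, with MAS5 named in the submitters' processing notes, and no detection calls were used here. Every sample column was used (0 left out). Columns of the authors' own comparisons hold fold changes and were not used. Samples were grouped by title. Log2 intensities of all 24 arrays were fitted with limma 3.58.1 in R 4.3.3 on group means, with the CBW minus control contrast at 12 h, differences between the 12 h response and those at 6, 24 and 48 h, and contrasts between control leaves. P-values were adjusted over all probe sets tested (Benjamini-Hochberg), called at 0.05 or less, and the fit was tested on simulated data. A probe set with values at 12 h only has 4 residual degrees of freedom, and one with all values 16. For a single probe set, an exact two-sided permutation test of 3 against 3 arrays cannot go below 0.1. The number of arrays limits the precision.

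Names came from the platform annotation (696 of 742 symbols were found in RefSeq for Gossypium_hirsutum_v2.1) and from gene names and lists in the study's supplement, which the study chose on these arrays. The genes named were the 12 largest named rises and falls, the largest of each list, those whose 12 h response stood apart, the qPCR genes and up to 2 unnamed probe sets per direction. Other members named beside a list's count were chosen after their values were seen. The members and lists were chosen with earlier results of these data known. Same-numbered control and CBW arrays deviated together (correlations 0.518, 0.286 and 0.191), although control replicate 3 correlated more with CBW replicate 2 (0.390), so the numbers, taken from the labels, were used as a block in an alternative fit. Other alternatives were quantile normalization, median centring, a floor at the 20th percentile, a pseudocount of 16, a filter on low intensities, the 12 h arrays only, an intensity trend and leaving out each array.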

Additional observations from a re-analysis of the deposited data

Results flagged for a closer look

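The genes below had a 12 h response that differed, by limma's test of the difference itself, from the response at 6, 24 and 48 h with one sign. Values are log2 differences between CBW and control leaves at 12 h. EXLB1 (second probe set) stood at 7.64, the thioredoxin superfamily protein at 4.74, the aluminum induced protein at 4.58 and anthranilate synthase alpha subunit 1 at 4.46. Unnamed probe sets stood at 4.92 and 4.65. A short chain alcohol dehydrogenase stood at 3.94, against 0.36 at 6 h, 1.51 at 24 h and 1.44 at 48 h. The bZIP factor Gorai.007G277300 stood at 2.91. The abscisic acid signalling member Gorai.010G076700 stood at 0.924, against 0.28 at 6 h, −1.09 at 24 h and −0.61 at 48 h.

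Among the falls, the C3H factor Gorai.013G229000 stood at −3.37, the stress-related Gorai.008G274600 at −2.61, the GATA factor Gorai.013G127900 at −2.31, the NAC factor Gorai.007G114500 at −2.09 and LOC107924088 of the flavonoid list at −1.83. Unnamed probe sets stood at −2.59, −2.52 and −2.34. The cytokinin biosynthesis member Gorai.001G208700 stood at −1.74, against −0.06 at 6 h, 0.60 at 24 h and −0.17 at 48 h. The CAMTA factor Gorai.008G089900 stood at −0.919, against 0.38 at 6 h, 0.14 at 24 h and 0.13 at 48 h, and the heat shock factor Gorai.004G208800 at −0.848, against 0.17 at 6 h, 0.06 at 24 h and 0.49 at 48 h.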

How the results depend on the processing

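Of the 135 genes described, 117 kept their direction and their call under every alternative that could be computed for them. The filter on low intensities kept 127 of them. The counts of calls and of large changes stayed within 1.5 times except for 3 of 82 values. With a floor at the 20th percentile, rises of 4-fold or more numbered 343 and falls 137, against 541 and 251, which follows from raising dim values. Leaving out CBW replicate 3 reduced the responses below those of all other times from 134 to 77. When single arrays were left out, calls ranged from 2406 to 2959 higher and 2974 to 3646 lower, rises of 4-fold or more from 516 to 584, falls from 209 to 335, responses above all other times from 109 to 186 and below from 77 to 189. With the replicate number as a block, 2936 probe sets were higher and 3767 lower, 6183 calls were shared with the fit without it, and no call of a described gene changed. Among counts of list members, 924 of 980 stayed within 1.5 times. The direction reversed in 4 genes, none of which was called with all arrays: Gorai.007G194700 (from −0.17 without control replicate 1 to 0.81 without CBW replicate 1), Gorai.009G184900 (from −0.037 without CBW replicate 1 to 0.63 without control replicate 1), Gorai.010G134700 (from −0.024 without control replicate 3 to 0.24 without control replicate 1) and LOC107930062 (from −0.96 without CBW replicate 2 to 0.66 without CBW replicate 1). Their cause was not tested. Sizes of the largest changes are limited by dim signals, since the control intensities of many lay below the 20th percentile of their array.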
